A study of Aethionema arabicum with 12 samples.

Results

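Imbibed seeds of *Aethionema arabicum* that had spent 7 d in white light and then 7 d in darkness are compared here with seeds taken at the end of their first day of light, after 23 h. *Aethionema arabicum* is a Brassicaceae species that branched off early from the rest of the family. All seeds are labelled wild type, were of the Cyprus accession, lay on wet filter paper at 14 °C, and received white light of 100 µmol per square metre and second during their light periods. The harvest took intact, ungerminated seeds, from which polyadenylated RNA was sequenced. The comparison takes 6 of the 12 libraries of the series, 3 for the dark-kept seeds and 3 for 1 d of light, chosen by their labelled treatment alone. The remaining libraries, 3 from seeds after 7 d of light and 3 from seeds after 14 d of light, are used to place the dark-kept seeds: 7 d of light is the point at which their darkness began. Dark-kept seeds were 7 d older than the 7 d light seeds, and the 14 d light seeds are the group of equal age. The first-day seeds were younger than all of these, so age and treatment cannot be told apart in the main comparison. Whether replicates were separate lots of seed is not stated in the labels, and p-values then measure only how far these libraries differ from each other, which may be technical. Of 24932 gene models in the table, 15301 had enough counts to be tested. The question is how far seeds returned to darkness stood from the state of the first day.

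A seed that takes up water can germinate or can stay dormant, and a seed that was ready to germinate can fall back into dormancy when conditions are wrong, which is called secondary dormancy. Abscisic acid (ABA) holds dormancy in place and gibberellin (GA) promotes germination, and many seeds sense light through phytochromes, whose active form lowers the ABA to GA balance in Arabidopsis. In the Cyprus accession white light has the opposite effect and holds germination back, and the series concerns the secondary dormancy that light induces there. Darkness also ends light signalling itself: the COP1 and SPA proteins then remove the transcription factor HY5, and phytochrome-interacting factors (PIFs) accumulate. Roles given below are those of the Arabidopsis gene with which the deposited table pairs each gene model. The sources used here do not give how reads matching several near-identical copies were counted, so the split of reads between copies of a gene is uncertain.

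Library totals were 1299536 to 1900418 counts in dark-kept seeds and 3387609 to 3996148 counts after 1 d of light. Depth thus differs with the group. The numbers of calls, the distances and the calls of single genes were also taken with every library thinned to 916523 counts, the smallest total of the series. Numbers of genes with 0 counts, folds against few or no counts, and the sums and counts of markers were not. Of the marker list for the seed coat, 5 of 10 paired models were tested; 3 fell and 1, MUCI10, rose, and their summed level was 187 to 224 counts per 1000000 counts (CPM) in dark-kept seeds and 428 to 432 CPM after 1 d of light. In the root and radicle list 4 of 11 models were tested, 2 fell, and the sums were 40.7 to 54.4 CPM in dark-kept seeds and 96.9 to 106.0 CPM after 1 d of light. For embryo epidermis and shoot, 5 of 6 models were tested, 2 fell and 1, ATML1, rose, with sums of 193 to 212 CPM in dark-kept seeds and 243 to 266 CPM after 1 d of light. Neither rise held without any single 1 d light library or dark-kept replicate 1 or 2, nor with total counts, DESeq2 scaling, no filter, thinning, DESeq2 or the removal of models paired with organelle genes. MUCI10 also lost its call with expanded counts, and ATML1 without dark-kept replicate 3 and with the replicate block. Some markers left untested had nearly all their counts on the first day. Of the root and radicle list SHR had 1 count in dark-kept seeds and 65 after 1 d of light, COBL9 0 in dark-kept seeds and 66 after 1 d, and CASP1 0 in dark-kept seeds and 10 after 1 d. The untested CER6 copy of the epidermis had 0 in dark-kept seeds and 30 after 1 d. The endosperm list had 1 tested member of 7, ICE1 (Aa31LG2G5800), an endosperm transcription factor of the developing seed that also acts elsewhere, at 87.9, 75.8 and 74.9 CPM in dark-kept seeds and 98.8, 89.6 and 87.4 CPM after 1 d of light. The endosperm genes *ZOU* and *MEA* and 1 *TT8* copy had 0 counts in all 12 libraries, as did the seed coat transporter gene *TT12*. Models paired with mitochondrial or plastid genes of Arabidopsis took 0.27% to 0.32% of the counts in dark-kept seeds and 0.062% to 0.21% after 1 d of light. In bulk seeds fewer cells of a type and less RNA per cell cannot be told apart, and the part of these markers in the results was not tested.

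Dark-kept seeds stood farther from the first-day seeds than seeds did that had only had the 7 d of light. The distance between libraries, taken as the root mean square difference of log2(CPM + 1) over the tested genes, was 1.21 to 1.32 between dark-kept and 1 d light libraries, with a median of 1.27 over 9 pairs. Of the libraries used to place them, 7 d light replicate 3 and 14 d light replicate 2 stood apart from their groups. Chi-square per degree of freedom over genes was 5.65 to 5.99 and 6.45 to 7.78 in pairs with them, beside 1.31 and 1.38 in the remaining pair of each group and 1.46 to 3.54 among dark-kept libraries. In distance 14 d light replicate 2 lay 0.36 and 0.39 from 7 d light replicates 1 and 2. From 14 d light replicates 1 and 3 it lay 0.68 and 0.55. The library 7 d light replicate 3 lay 0.44 from 14 d light replicate 3, beside 0.51 and 0.53 from 7 d light replicates 1 and 2. Each thus lay nearest to a library labelled with the other light period, and the reason was not tested. Seeds after 7 d of light, the state before darkness, stood nearer to the first day, at 0.94 to 1.1 with a median of 0.97 (0.94 to 0.98 without replicate 3). Seeds after 14 d of light lay at 0.98 to 1.26 with a median of 1.13 (1.13 to 1.26 without replicate 2). All 9 dark-kept distances were above all 9 of the 7 d light libraries and overlapped the range of the 14 d light libraries; these distances share the 1 d libraries and carry no test. Libraries of the same condition differed by 0.39 to 0.50 among dark-kept seeds and by 0.22 to 0.25 after 1 d of light. From the 7 d and 14 d light libraries, dark-kept seeds were 0.60 to 0.78 and 0.59 to 0.76 away. At equal depth the order held, with 1.28 to 1.38 for dark-kept seeds, 1.03 to 1.18 for 7 d of light and 1.07 to 1.29 for 14 d of light. The first principal component of log2(CPM + 1), which held 66.4% of the variance, placed dark-kept libraries at 45.6 to 58.2 and 1 d light libraries at -99.8 to -95.8, with 7 d light at 6.62 to 27.9 and 14 d light at 13.8 to 43.6 between them.

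**Figure D1:**
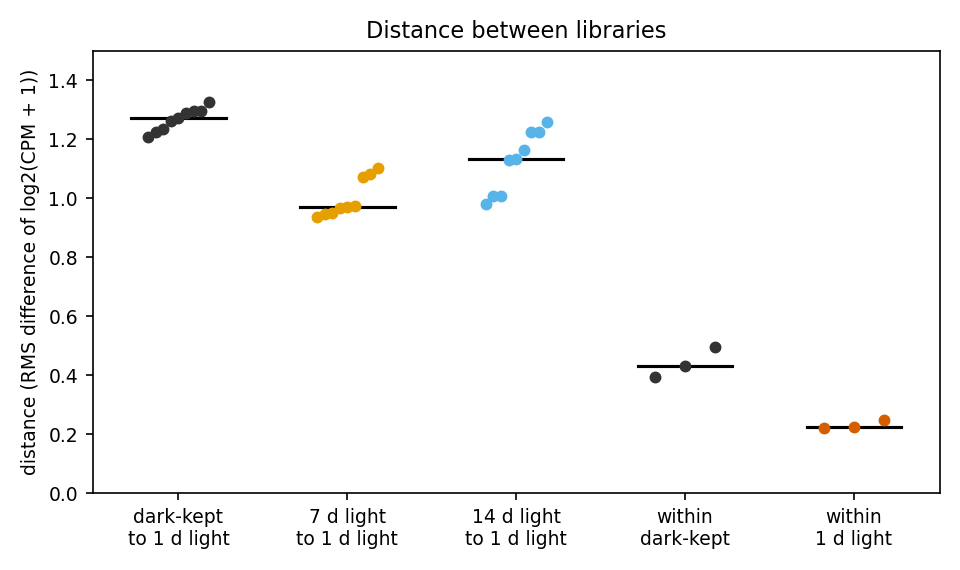
Distance of each library to the 1 d light libraries, as the root mean square difference of log2(CPM + 1) over 15301 genes; each point is 1 pair of libraries and the bar is the median. The dark-kept pairs sit at 1.21 to 1.32, above all pairs of 7 d light (0.94 to 1.1), while pairs within 1 d light lie at 0.22 to 0.25.

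Most of the transcriptome differed. With edgeR's quasi-likelihood test at an adjusted p under 0.05, 5075 genes were higher and 5430 lower in dark-kept seeds than after 1 d of light, 68.7% of the tested genes (33.2% higher, 35.5% lower), and the values of the groups did not overlap for 78.0%. When the change itself had to exceed 2-fold, 1410 genes were higher and 2179 lower, 23.5% of those tested (9.22% and 14.2%). That split leans on the scaling: with total counts in place of TMM scaling 984 were higher and 2670 lower. That setting moved the median log2 fold change of all genes to -0.24 against -0.04 as reported. With each library's trend on gene length removed 1854 were higher and 1906 lower, at a median of 0.12. The median absolute log2 fold change over all genes was 0.75 for dark-kept seeds against 1 d of light, beside 0.55 for 7 d and 0.62 for 14 d of light against the same 1 d libraries. Against 7 d of light, dark-kept seeds had 1289 genes higher and 1529 lower, 18.4% of those tested (8.42% higher, 9.99% lower), with a median absolute log2 fold change of 0.30. This count rests on single libraries. It was 725 higher and 884 lower without dark-kept replicate 1, 747 higher and 939 lower without dark-kept replicate 2, 748 higher and 957 lower without 7 d light replicate 1 and 704 higher and 941 lower without 7 d light replicate 2. Without 7 d light replicate 3, which stands apart from its group, 1751 were higher and 1933 lower, and every difference from 7 d of light that is printed below for a single gene passed there too. At equal depth 602 were higher and 734 lower. Total counts gave 968 higher and 1832 lower, and removal of the length trend 1982 higher and 1372 lower. Some transcripts were read in 1 group alone. In all, 94 genes with at least 5 CPM after 1 d of light had 0 counts in all 3 dark-kept libraries, and 5 genes with at least 5 CPM in dark-kept seeds had 0 counts after 1 d of light. Totals were 4758365 counts over the dark-kept and 11042219 counts over the 1 d libraries. A count of 0 is reached more easily in the smaller total, and these numbers were not taken at equal depth.

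**Figure D2:**
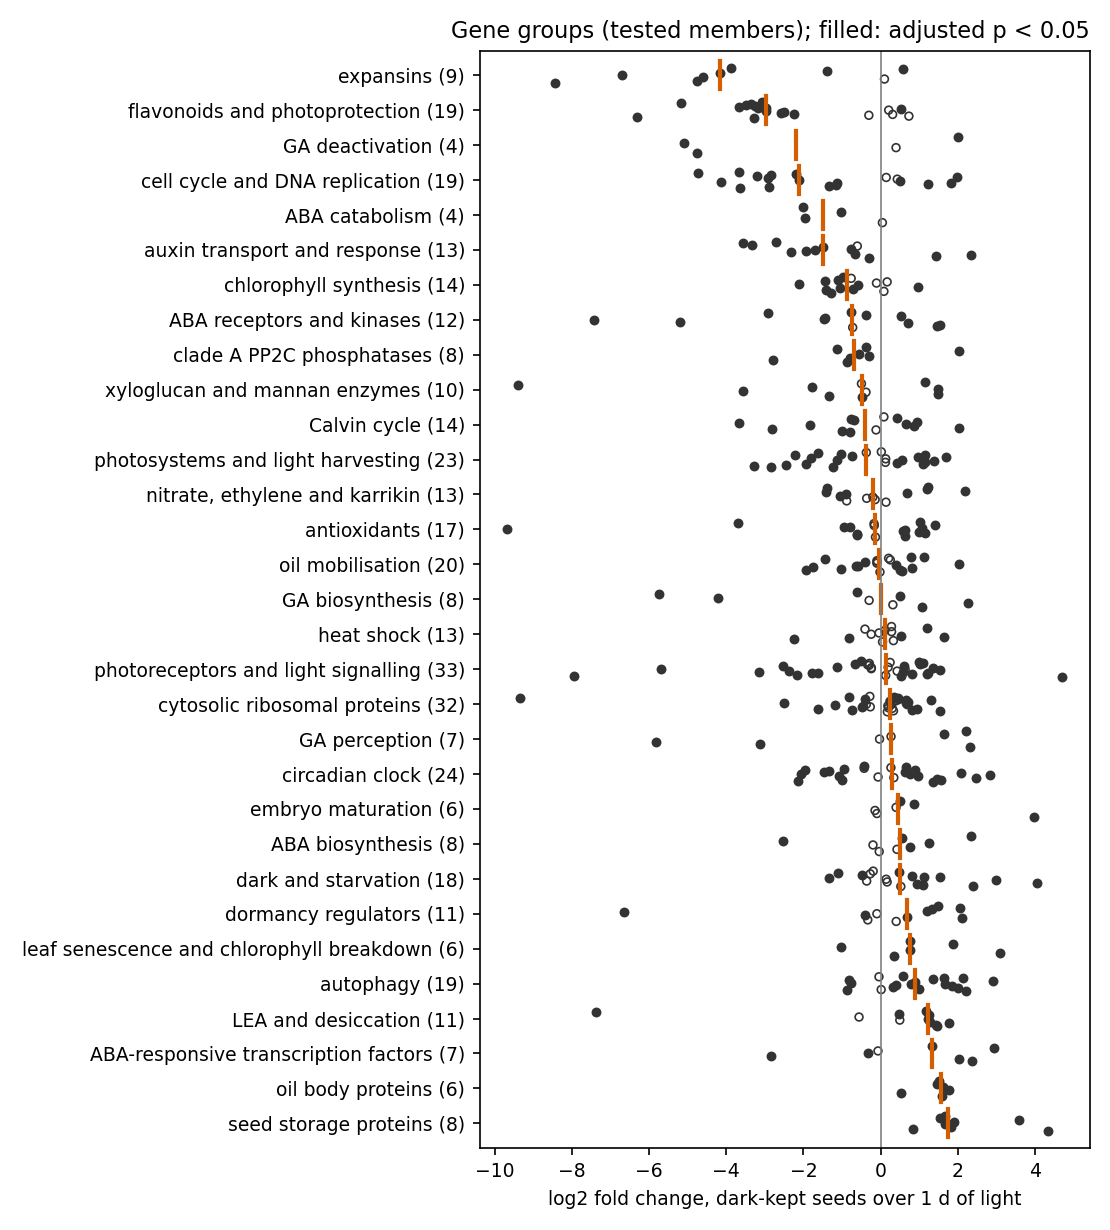
Log2 fold change, dark-kept seeds over 1 d of light, of every tested member of 31 gene groups; filled points passed the test at an adjusted p under 0.05, open points did not, and the bar is the group's median. For genes with 0 to 3 counts in a group the fitted value plotted depends on the fit and is no bound. Flavonoid and photoprotection genes (median -2.98), expansins (-4.17) and cell cycle genes (-2.1) lie to the left, storage and oil body proteins to the right (1.75 and 1.55).

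Among the genes with the lowest values in dark-kept seeds were protein-degrading and wall-modifying enzymes of the first day. CP1 (Aa31LG6G14100), a papain-type cysteine protease, had 0 counts in all 3 dark-kept libraries, against 78.5, 83.0 and 78.5 CPM after 1 d of light, at least 120.0-fold lower when 3 counts over the group are taken as the limit. A subtilisin-like protease, Aa31LG9G7400, was also at 0 in dark-kept seeds, against 58.3, 62.3 and 58.1 CPM after 1 d (at least 89.4-fold lower), and it was at 0 after 7 d and 14 d of light too. CP1 had 0.369, 0 and 0 CPM after 7 d of light, so both proteases were at or near 0 when darkness began. VTE4 (Aa31LG2G2160), gamma-tocopherol methyltransferase of vitamin E synthesis, was at 0 in dark-kept seeds and at 41.2, 49.97 and 41.7 CPM after 1 d (at least 66.2-fold lower). XTH4 (Aa31LG8G11680), a xyloglucan endotransglucosylase, was likewise at 0 against 35.0, 38.2 and 36.8 CPM after 1 d (at least 55.1-fold lower). Others at 0 in dark-kept seeds were a glycosyl hydrolase (Aa31LG1G22710), a pectate lyase (Aa31LG4G12280), an O-methyltransferase (Aa31LG4G7620), a TIR-NBS protein (Aa31LG2G16150), a pentatricopeptide repeat protein (Aa31LG11G15140) and a copy of the ribosomal protein gene *RPL4A* (Aa31sc350G40), each at least 36.8-fold lower. The call for the TIR-NBS gene was lost with DESeq2 (adjusted p = 0.053).

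The genes with the highest ratio were mostly scarcely read on the first day. FUR1 (Aa31LG3G2490), a nucleoside transporter of the major facilitator superfamily, stood at 78.4, 61.9 and 61.0 CPM in dark-kept seeds, against 1.26, 0.273 and 1.14 CPM after 1 d (log2 fold change, log2FC, 6.12 ± 0.24 (standard error), adjusted p = 3.4e-09). Its level after 7 d of light was already 57.2, 64.0 and 59.8 CPM, so the dark-kept libraries lay at the level reached in light. AGL30 (Aa31LG5G9490), a MADS-box gene related to those of pollen, reached 81.2, 74.1 and 72.1 CPM in dark-kept seeds, against 1.51, 1.91 and 1.83 CPM after 1 d (log2FC 5.39 ± 0.30, adjusted p = 2.2e-08). With 13.3, 19.8 and 34.3 CPM after 7 d of light, its dark-kept values were above every light library. GRP17 (Aa31LG3G18890), a glycine-rich oleosin-type protein, was at 29.1, 14.7 and 18.3 CPM in dark-kept seeds, against 0.754, 0.273 and 0.458 CPM after 1 d of light, and did not pass 3.18 CPM in any of the 9 light libraries (log2FC 5.24 ± 0.43, adjusted p = 3.3e-07). A flavin-containing monooxygenase (Aa31LG10G5010) had 2 counts over the 1 d libraries and was 119.9-fold (95% interval 32.2 to 1005) higher in dark-kept seeds. A thioredoxin-superfamily protein (Aa31LG9G16810), a U-box kinase (Aa31LG1G16490), a TRAF-like protein (Aa31LG8G840) and the terpene synthase *TPS10* (Aa31LG9G12160) had log2 fold changes of 4.34 to 5.87. *PIF5* and *CRD*, the remaining 2 of the 10 with the highest ratio, are described with their groups.

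Most genes of flavonoid synthesis and photoprotection stood far lower in dark-kept seeds than in seeds of any light condition. These genes make anthocyanins and flavonols, pigments that screen light, or shield and repair photosystems and DNA. Of 19 tested members 14 fell, all 14 past 2-fold, 1 rose and 4 did not pass, with a median log2 fold change of -2.98 (-2.97 with genes read at most 3 times in a group taken at their bound or ratio) against -0.04 over all genes. The same members had medians of 0.11 after 7 d and 0.41 after 14 d of light, both set against the same 1 d libraries, and 16 of 19 were lower in dark-kept seeds than after 7 d of light. DFR (Aa31LG9G12870), dihydroflavonol reductase at the entry to anthocyanins, was at 4.06, 3.26 and 3.88 CPM in dark-kept seeds, against 143, 143 and 132 CPM after 1 d (log2FC -5.19 ± 0.26, adjusted p = 1.1e-08). F3'H (Aa31LG3G18530), flavonoid 3'-hydroxylase, stood at 29.8, 32.6 and 32.2 CPM in dark-kept seeds and at 245, 257 and 238 CPM after 1 d (log2FC -2.97 ± 0.12, adjusted p = 4.4e-09). CHI (Aa31LG10G10040), chalcone isomerase, gave 14.2, 19.6 and 13.3 CPM in dark-kept seeds against 149.9, 155 and 143 CPM after 1 d (log2FC -3.27 ± 0.17, adjusted p = 1.6e-08). For each of the 3 enzymes the groups lay far apart, and the seeds kept in light for 7 d and 14 d lay between them.

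Further enzymes of the anthocyanin branch fell as well. CHS (Aa31LG5G11220), chalcone synthase, which makes the flavonoid skeleton, had 39.9, 28.5 and 31.1 CPM in dark-kept seeds, against 263, 278 and 247 CPM after 1 d (log2FC -2.98 ± 0.22, adjusted p = 1.3e-07). For this gene 7 d light libraries had 250.4, 247 and 336 CPM and 14 d light libraries 462, 268 and 383 CPM. ANS (Aa31LG6G4950), anthocyanidin synthase, was at 27.7, 21.2 and 23.9 CPM in dark-kept seeds against 222, 231 and 213 CPM after 1 d (log2FC -3.19 ± 0.19, adjusted p = 3.3e-08). UGT75C1 (Aa31LG9G3270), the anthocyanin 5-O-glucosyltransferase, stood at 24.3, 19.6 and 18.3 CPM in dark-kept seeds and 176, 182 and 163 CPM after 1 d (log2FC -3.07 ± 0.14, adjusted p = 8.9e-09). Their transcriptional activator PAP1 (Aa31LG2G3050), a MYB factor, fell with them, at 13.5, 13.9 and 13.3 CPM in dark-kept seeds against 72.2, 62.3 and 60.2 CPM after 1 d (log2FC -2.26 ± 0.27, adjusted p = 8.3e-06). The exception was F3H (Aa31LG4G19270), flavanone 3-hydroxylase, at 471, 499 and 413 CPM in dark-kept seeds and 316, 341 and 297 CPM after 1 d (log2FC 0.53 ± 0.21, adjusted p = 0.038), while 7 d light libraries had 477, 556 and 719 CPM. This call was lost without any single 1 d light library, without dark-kept replicate 1 or 2 (adjusted p of 0.075 to 0.13), with the replicate block (0.061), with total counts (0.14) and with DESeq2 size factors (0.051). It was also lost with counts expanded for a limit of 1 read per base, which is described with the storage proteins (log2 fold change 0.04).

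Some members were low on both the first day and in darkness and high only in between. A second anthocyanidin synthase copy (Aa31LG1G20510) was at 11.5, 8.15 and 6.1 CPM in dark-kept seeds and 6.04, 3.28 and 5.72 CPM after 1 d of light. It had 51.3, 51.6 and 74.4 CPM after 7 d and 99.5, 62.7 and 103 CPM after 14 d of light. Its difference from 1 d did not pass the test (log2FC 0.73 ± 0.41, adjusted p = 0.13), and that from 7 d of light did (log2FC -2.78 ± 0.31, adjusted p = 9.3e-05). MYB12 (Aa31LG1G28760), a MYB activator of flavonol genes, had 7.44, 12.2 and 6.66 CPM in dark-kept seeds, 7.04, 5.46 and 7.78 CPM after 1 d and 26.6, 17.2 and 27.4 CPM after 7 d of light. PHR1 (Aa31LG1G2270), the photolyase that repairs ultraviolet-damaged DNA, followed the same course, at 8.12, 13.9 and 11.7 CPM in dark-kept seeds, 12.8, 13.9 and 14.4 CPM after 1 d and 48.7, 45.4 and 47.1 CPM after 7 d of light. For these 3 the dark-kept and 1 d values overlapped or lay side by side while light-kept seeds stood above both. The early light-induced proteins, which bind pigments under excess light, were lower in darkness than in any light library. ELIP2 (Aa31LG8G9320) had 6.76, 9.78 and 3.88 CPM in dark-kept seeds and 74.2, 73.7 and 72.3 CPM after 1 d (log2FC -3.49 ± 0.24, adjusted p = 8.0e-08). ELIP1 (Aa31LG8G9340) had 4.06, 2.44 and 2.22 CPM in dark-kept seeds and 30.4, 28.7 and 30.9 CPM after 1 d (log2FC -3.35 ± 0.21, adjusted p = 4.9e-08).

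**Figure D3:**
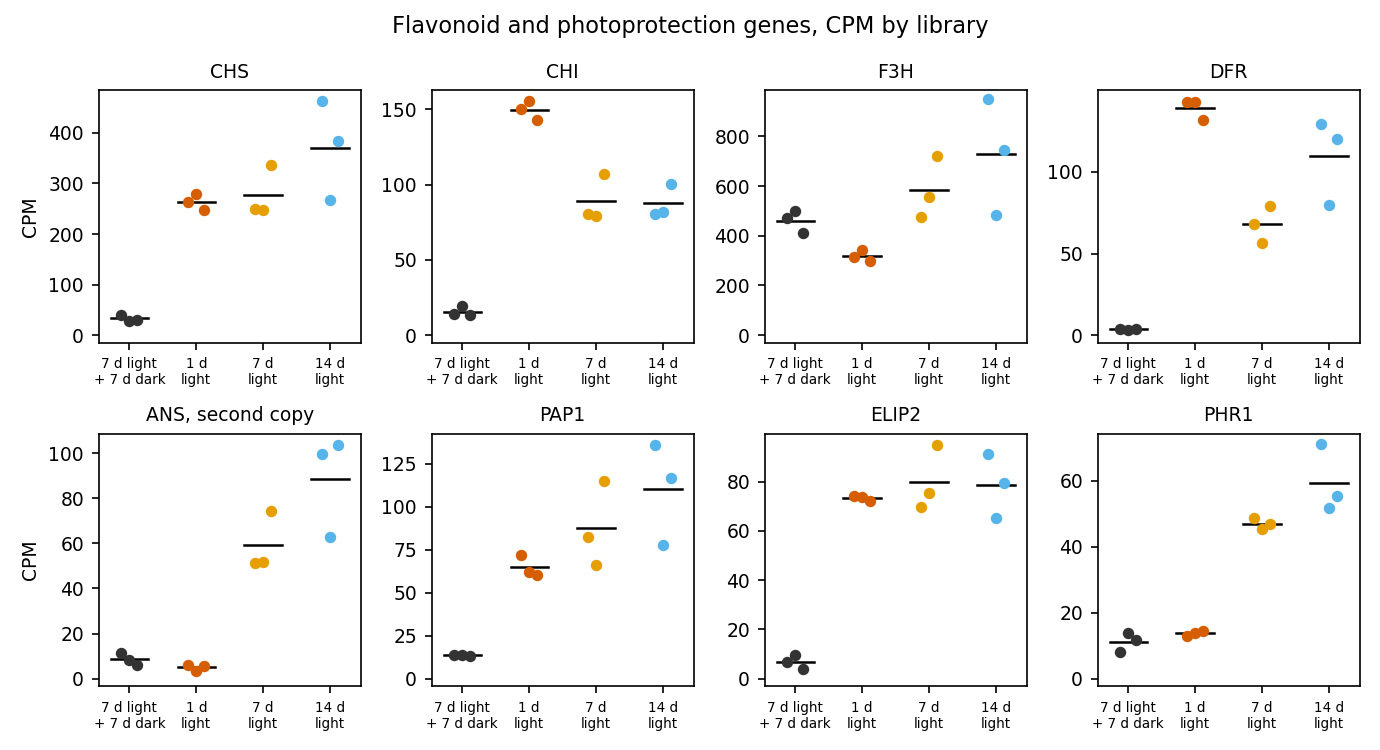
CPM of 8 flavonoid and photoprotection genes in each library, with dark-kept seeds at the left and 1 d, 7 d and 14 d of light to the right; points are libraries and bars are means of 3. DFR, CHS, CHI, PAP1 and ELIP2 are lowest in dark-kept seeds, the second ANS copy and PHR1 are low in dark-kept and 1 d light seeds, and F3H lies at 413 to 499 CPM in the dark.

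Genes that perceive light and pass its signal on moved in both directions, 12 of 33 higher, 11 lower and 10 not called (median 0.13). This split is near that of all tested genes, of which 33.2% were higher and 35.5% lower. The group's median was -0.08 without dark-kept replicate 3 and -0.07 with total counts, and 7 members were lower at equal depth. Of the SPA partners of COP1, which suppress light responses in the dark, every tested copy fell. One copy of SPA3 (Aa31LG10G2040) had 0 counts in dark-kept seeds, against 14.1, 12.3 and 13.3 CPM after 1 d (at least 19.9-fold lower), 18.1, 21.2 and 18.4 CPM after 7 d and 17.8, 18.03 and 14.2 CPM after 14 d of light. A second SPA3 copy (Aa31LG8G2520) was at 13.5, 4.89 and 11.7 CPM in dark-kept seeds and 61.9, 57.3 and 61.3 CPM after 1 d (log2FC -2.53 ± 0.21, adjusted p = 3.3e-07). SPA1 (Aa31LG1G27710) was at 34.5, 39.1 and 46.6 CPM in dark-kept seeds against 146, 133 and 133 CPM after 1 d (log2FC -1.77 ± 0.17, adjusted p = 1.5e-06), and SPA2 (Aa31LG9G11060) had a log2 fold change of -0.67, a call lost without dark-kept replicate 2 (adjusted p = 0.052). COP1 (Aa31LG5G4610) itself, the ubiquitin ligase they serve, had 58.2, 58.7 and 56.05 CPM in dark-kept seeds and 48.8, 52.2 and 49.9 CPM after 1 d, which did not pass the test (log2 fold change 0.20, adjusted p = 0.29).

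Photoreceptor genes and PIF genes split as well. PIF5 (Aa31LG10G13550), a PIF that promotes growth in the dark and shade, rose most in this group, to 44.0, 35.0 and 35.5 CPM in dark-kept seeds, against 2.51, 0.819 and 0.915 CPM after 1 d (log2FC 4.70 ± 0.29, adjusted p = 3.8e-08). Light-kept seeds had 9.22, 9.7 and 8.91 CPM after 7 d. PIF3 (Aa31LG1G5530), another PIF, fell to 6.76, 1.63 and 3.33 CPM in dark-kept seeds against 30.9, 41.0 and 35.5 CPM after 1 d (log2FC -3.15 ± 0.40, adjusted p = 1.6e-05). Of PIF1, the PIF known for repressing germination in the dark, one copy (Aa31LG8G17110) rose to 209.6, 213 and 241 CPM in dark-kept seeds against 146, 145 and 147 CPM after 1 d (log2FC 0.60 ± 0.11, adjusted p = 2.3e-04). A weakly read copy (Aa31LG2G21580) fell (log2FC -2.39 ± 0.41, adjusted p = 2.0e-04). PHYA (Aa31LG1G5460), the photoreceptor that builds up in darkness, had 389.5, 273 and 425 CPM in dark-kept seeds and 258, 229 and 246 CPM after 1 d (log2FC 0.57 ± 0.15, adjusted p = 0.0042). After 7 d of light PHYA was at 141, 126 and 129.8 CPM (log2FC 1.46 ± 0.16, adjusted p = 6.6e-05, dark-kept against 7 d). The phototropin PHOT2 (Aa31LG3G13970) stood at 224, 213 and 227 CPM in dark-kept seeds against 75.7, 76.7 and 77.1 CPM after 1 d (log2FC 1.53 ± 0.12, adjusted p = 2.1e-07), of which most had come by 7 d of light (180.0, 180.0 and 146 CPM). PHYB (Aa31LG8G4080), at 42.6, 29.3 and 65.5 CPM in dark-kept seeds and 56.3, 57.9 and 58.8 CPM after 1 d, did not pass the test (adjusted p = 0.40). Neither did HY5 (Aa31LG3G15930), at 68.98, 110.0 and 70.5 CPM in dark-kept seeds and 53.8, 52.7 and 52.4 CPM after 1 d (adjusted p = 0.051). HY5 did pass as higher with only the 6 libraries (adjusted p = 0.0021), at equal depth (0.018) and with the length trend removed (0.012).

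**Figure D4:**
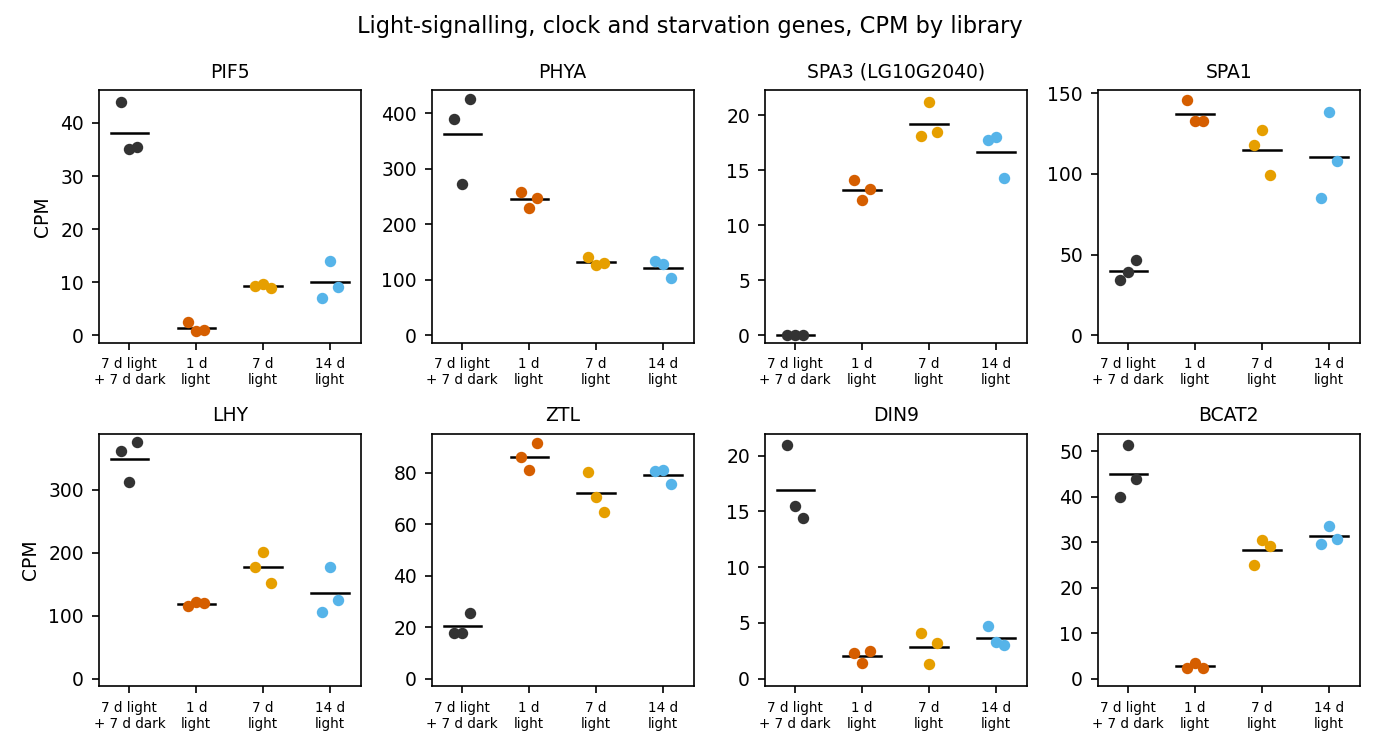
CPM of 8 light-signalling, clock and starvation genes in each library, with dark-kept seeds at the left and 1 d, 7 d and 14 d of light to the right; points are libraries and bars are means of 3. PIF5 and DIN9 are high in dark-kept seeds alone, the SPA3 copy Aa31LG10G2040 is at 0 there, PHYA is higher in the dark than after 7 d or 14 d of light, and BCAT2 had risen by 7 d of light.

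Of the 24 tested clock genes 11 rose, 9 fell and 4 did not pass (median 0.30). Over all tested genes 33.2% were higher and 35.5% lower. The same clock genes had medians of 0.30 after 7 d and 0.26 after 14 d of light against the same 1 d libraries. Morning and evening components kept no common direction. LHY (Aa31LG1G10420), a morning-phased MYB of the core loop, was at 361, 313 and 375 CPM in dark-kept seeds and 115, 122 and 119 CPM after 1 d (log2FC 1.56 ± 0.17, adjusted p = 3.0e-06). The related activator RVE8 (Aa31LG3G2040) was at 209.6, 192 and 179.8 CPM in dark-kept seeds and 45.5, 44.2 and 47.4 CPM after 1 d (log2FC 2.08 ± 0.10, adjusted p = 1.1e-08). The evening gene TOC1 (Aa31LG11G2040) had 8.12, 7.33 and 8.32 CPM in dark-kept seeds, against 35.7, 32.5 and 38.7 CPM after 1 d (log2FC -2.15 ± 0.27, adjusted p = 1.3e-05). ZTL (Aa31LG3G13240), the blue-light F-box protein that degrades TOC1, had 17.58, 17.9 and 25.5 CPM in dark-kept seeds against 86.0, 81.1 and 91.3 CPM after 1 d (log2FC -2.06 ± 0.15, adjusted p = 1.1e-07). Copies of PRR5 diverged: Aa31LG1G29300 had 83.9, 82.3 and 60.5 CPM in dark-kept seeds and 9.81, 11.2 and 10.5 CPM after 1 d (log2FC 2.83 ± 0.22, adjusted p = 2.2e-07). Aa31LG11G3720 had 15.6, 11.4 and 19.4 CPM in dark-kept seeds and 31.9, 31.7 and 31.1 CPM after 1 d (log2FC -0.99 ± 0.20, adjusted p = 6.8e-04). The time of day of each harvest is not in the labels, so clock phase and treatment cannot be told apart.

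Nuclear photosynthesis genes moved in both directions, as did all tested genes (33.2% higher and 35.5% lower). Of 23 photosystem and light-harvesting genes 8 rose and 11 fell (median -0.37). The median was -0.68 without dark-kept replicate 1, and 5 rose without dark-kept replicate 2 (median -0.24) and at equal depth (median -0.65). LHCB1.4 (Aa31LG10G6950), a light-harvesting protein of photosystem II, fell to 2.71, 1.63 and 1.66 CPM in dark-kept seeds, against 19.4, 19.9 and 20.1 CPM after 1 d (log2FC -3.28 ± 0.28, adjusted p = 5.5e-07). PSBS (Aa31LG6G9330), which dissipates excess light as heat, fell to 38.5, 43.2 and 30.5 CPM in dark-kept seeds against 130.0, 129.7 and 125 CPM after 1 d (log2FC -1.79 ± 0.15, adjusted p = 3.4e-07). The minor antenna proteins went the other way: LHCB6 (Aa31LG7G410) had 133, 141 and 125 CPM in dark-kept seeds and 38.2, 41.0 and 42.8 CPM after 1 d (log2FC 1.7 ± 0.14, adjusted p = 3.0e-07). LHCB4.2 (Aa31LG5G18890) had 161, 168 and 137 CPM in dark-kept seeds and 58.1, 59.8 and 59.7 CPM after 1 d (log2FC 1.38 ± 0.13, adjusted p = 1.0e-06). In the Calvin cycle 5 of 14 rose and 7 fell (median -0.41, beside 0.36 after 7 d and 0.22 after 14 d of light against the same 1 d libraries), and 5 were lower than after 7 d of light. PRK (Aa31LG2G13940), phosphoribulokinase, was at 3.38, 3.26 and 4.99 CPM in dark-kept seeds, 15.8, 13.4 and 14.0 CPM after 1 d and 35.4, 50.7 and 27.4 CPM after 7 d of light (log2FC -1.84 ± 0.33, adjusted p = 2.7e-04 against 1 d). GAPA (Aa31LG2G5900), a glyceraldehyde-3-phosphate dehydrogenase subunit, had 3.38, 2.44 and 0.555 CPM in dark-kept seeds against 27.2, 24.9 and 26.5 CPM after 1 d (log2FC -3.68 ± 0.30, adjusted p = 3.4e-07). Chlorophyll synthesis leaned down, with 9 of 14 lower and 1 higher (median -0.87). The same members had medians of -0.46 after 7 d and -0.46 after 14 d of light against the same 1 d libraries. Of them 6 were lower than after 7 d of light (5 without 7 d light replicate 3). HEMC (Aa31LG3G18290), porphobilinogen deaminase, gave 29.1, 26.9 and 32.2 CPM in dark-kept seeds and 131, 131 and 125 CPM after 1 d (log2FC -2.12 ± 0.14, adjusted p = 7.7e-08). The exception was PORC (Aa31LG1G20960), a protochlorophyllide reductase, at 123, 98.6 and 134 CPM in dark-kept seeds and 59.3, 57.1 and 66.8 CPM after 1 d (log2FC 0.96 ± 0.19, adjusted p = 5.6e-04).

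Genes for the rate-limiting enzymes of ABA synthesis moved in opposite directions. The 9-cis-epoxycarotenoid dioxygenases (NCEDs) cleave the carotenoid precursor of ABA. NCED6 (Aa31LG8G10550) stood at 121, 93.7 and 124 CPM in dark-kept seeds, against 21.4, 22.1 and 23.1 CPM after 1 d (log2FC 2.35 ± 0.14, adjusted p = 3.6e-08). NCED5 (Aa31LG6G5570) ran the other way, at 17.58, 14.7 and 21.6 CPM in dark-kept seeds and 113, 101 and 102 CPM after 1 d (log2FC -2.53 ± 0.15, adjusted p = 2.9e-08). NCED9 (Aa31LG4G2560) was at 27.7, 12.2 and 13.9 CPM in dark-kept seeds against 11.6, 7.92 and 12.1 CPM after 1 d (log2FC 0.76 ± 0.31, adjusted p = 0.044). The groups were separate for NCED6 and NCED5, and for NCED9 the lowest dark-kept value lay just above the highest 1 d value. The call for NCED9 was lost without any single 1 d light library and without dark-kept replicate 1 (adjusted p of 0.052 to 0.43), with the replicate block (0.067), with total counts (0.14), at equal depth (0.11) and with DESeq2 (0.0501). Of 8 tested synthesis genes 4 rose, 1 fell and 3 did not pass (median 0.49, and at equal depth 2 rose). Their medians were 0.69 after 7 d and 0.54 after 14 d of light against the same 1 d libraries. ABA2 (Aa31LG5G9220), the short-chain dehydrogenase that makes abscisic aldehyde, was the other large change (log2FC 1.26 ± 0.18, adjusted p = 4.2e-05), and ABA3 (Aa31LG7G1090) rose by a log2 fold change of 0.56, lost at equal depth. The zeaxanthin epoxidase gene ABA1 (Aa31LG1G15560, log2 fold change -0.04), ABA4 (Aa31LG2G3480, 0.42) and the aldehyde oxidase gene AAO3 (Aa31LG5G8560, -0.20) did not pass the test.

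The tested genes for enzymes that inactivate ABA by hydroxylation all fell. CYP707A2 (Aa31LG5G7160), the main one of imbibed Arabidopsis seeds, was at 19.6, 35.8 and 25.0 CPM in dark-kept seeds, against 104, 106 and 100.2 CPM after 1 d (log2FC -1.97 ± 0.17, adjusted p = 5.4e-07). It was also lower than after 7 d of light (62.7, 51.6 and 48.3 CPM) and 14 d of light (119.7, 98.8 and 103 CPM). One CYP707A3 copy (Aa31LG9G7680) had 9.47, 4.07 and 5.55 CPM in dark-kept seeds and 26.2, 23.8 and 28.6 CPM after 1 d (log2FC -2.02 ± 0.27, adjusted p = 1.9e-05). The other (Aa31LG6G1940) had 14.9, 19.6 and 6.66 CPM in dark-kept seeds and 24.4, 28.1 and 27.0 CPM after 1 d (log2FC -1.02 ± 0.28, adjusted p = 0.006, lost at equal depth). The glucosyltransferase gene UGT71C5 (Aa31LG1G6490), whose product conjugates ABA, had 89.9, 92.1 and 83.2 CPM in dark-kept seeds and 84.2, 85.5 and 86.7 CPM after 1 d of light and did not pass the test (adjusted p = 0.70). Over the list 3 of 4 fell and 1 did not pass (median -1.50).

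Of 12 ABA receptors and kinases 4 rose, 7 fell and 1 did not pass (median -0.74, or -1.13 without dark-kept replicate 2; at equal depth 4 rose and 3 fell, with a median of -0.04). Of 8 clade A PP2C phosphatases, which block ABA signalling until a receptor binds them, 7 fell, 1 of them past 2-fold, and 1 rose (median -0.68). Only 5 fell without 1 d light replicate 3 or dark-kept replicate 1 or 3, and with the length trend removed. The same phosphatases had medians of -0.47 after 7 d and -0.37 after 14 d of light against the same 1 d libraries. Against 7 d of light 1 was lower and 1 higher in dark-kept seeds. PYL11 (Aa31LG9G7200), a receptor of the seed, was at 5.41, 8.96 and 8.32 CPM in dark-kept seeds and 58.1, 55.98 and 57.4 CPM after 1 d (log2FC -2.91 ± 0.31, adjusted p = 3.0e-06). Light-kept seeds had 60.8, 63.5 and 98.0 CPM after 7 d and 134, 74.2 and 117 CPM after 14 d. The receptors PYL5 (Aa31LG11G6510) and PYL9 (Aa31LG1G10700) went up: PYL5 had 64.2, 66.0 and 64.4 CPM in dark-kept seeds and 24.6, 25.1 and 21.1 CPM after 1 d (log2FC 1.46 ± 0.13, adjusted p = 4.9e-07). This PYL9 copy had 71.0, 73.3 and 54.9 CPM in dark-kept seeds and 21.1, 21.8 and 25.2 CPM after 1 d (log2FC 1.53 ± 0.19, adjusted p = 9.6e-06). Both were also above 7 d of light (log2 fold changes of 1.25 and 0.94). Among the phosphatases ABI2 (Aa31LG3G12950) fell to 3.38, 3.26 and 2.22 CPM in dark-kept seeds, against 21.4, 16.9 and 21.97 CPM after 1 d (log2FC -2.78 ± 0.26, adjusted p = 9.2e-07). HAB1 (Aa31LG4G3120) rose to 79.8, 94.5 and 96.0 CPM in dark-kept seeds against 23.4, 18.8 and 23.57 CPM after 1 d (log2FC 2.03 ± 0.14, adjusted p = 9.0e-08). Of the transcription factors downstream, 4 of 7 rose and 2 fell (median 1.33, beside 0.43 after 7 d and 1.32 after 14 d of light). Only 1 fell without 1 d light replicate 1 or 2 or dark-kept replicate 1 or 3. ABF1 (Aa31LG10G4330), a bZIP factor binding ABA response elements, had 191, 187 and 185 CPM in dark-kept seeds and 36.0, 36.6 and 36.8 CPM after 1 d (log2FC 2.36 ± 0.10, adjusted p = 4.4e-09). ABI4 (Aa31LG5G19360), an AP2-type factor, had 16.2, 17.1 and 12.2 CPM in dark-kept seeds and 108, 112 and 101 CPM after 1 d (log2FC -2.83 ± 0.15, adjusted p = 1.3e-08). ABI3 (Aa31LG8G11820), the central seed regulator, kept 179.9, 153 and 173 CPM in dark-kept seeds beside 183, 178 and 169.6 CPM after 1 d of light and did not pass the test (adjusted p = 0.60).

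In GA synthesis the last step was lower and the steps before it were mixed. The GA 3-oxidases form the bioactive hormone. GA3OX1 (Aa31LG7G270) had 1 count over the dark-kept libraries, against 13.3, 15.6 and 15.3 CPM after 1 d of light, 66.5-fold (95% interval 11.8 to 2639) lower, and it was equally near 0 after 7 d and 14 d of light. GA3OX2 (Aa31LG4G610) stood at 2.71, 3.26 and 0.555 CPM in dark-kept seeds, against 38.7, 42.3 and 34.3 CPM after 1 d (log2FC -4.22 ± 0.30, adjusted p = 1.1e-07). After 7 d of light GA3OX2 was at 16.6, 22.1 and 21.6 CPM (log2FC -3.27 ± 0.35, adjusted p = 6.6e-05, dark-kept against 7 d). GA3OX1 was thus near 0 in the light already, whereas GA3OX2 was lower in the dark than in any light library. The 20-oxidase GA20OX2 (Aa31LG3G8250), acting one step earlier, was at 111, 93.7 and 116 CPM in dark-kept seeds and 22.1, 22.4 and 22.4 CPM after 1 d (log2FC 2.26 ± 0.16, adjusted p = 1.0e-07), above every light library. GA20OX1 (Aa31sc904G10) fell to 23.0, 26.1 and 27.7 CPM in dark-kept seeds against 35.7, 41.8 and 40.1 CPM after 1 d (log2FC -0.61 ± 0.15, adjusted p = 0.003). GA3 (Aa31LG11G4920), ent-kaurene oxidase, rose (log2FC 1.07 ± 0.22, adjusted p = 7.6e-04), as did KAO2 (Aa31LG5G4830, log2 fold change 0.51). GA2 (Aa31LG4G1570, -0.30) and GA20OX3 (Aa31LG3G450, 0.32) did not pass the test, so that 3 of 8 rose and 3 fell.

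GA inactivation and perception were rearranged between copies. One GA2OX2 copy (Aa31LG10G6850), a GA 2-oxidase, was at 1.35, 0.815 and 0.555 CPM in dark-kept seeds, against 24.4, 22.1 and 30.0 CPM after 1 d (log2FC -4.77 ± 0.47, adjusted p = 1.6e-06). The other copy (Aa31LG6G5630) was at 98.7, 65.2 and 105 CPM in dark-kept seeds and 27.2, 19.9 and 20.1 CPM after 1 d (log2FC 2.01 ± 0.23, adjusted p = 5.0e-06). After 7 d of light it was at 8.11, 3.97 and 13.4 CPM (log2FC 3.49 ± 0.29, adjusted p = 8.3e-06, dark-kept against 7 d). The copies moved in opposite directions, and each was also different from 7 d of light in the same sense. GA2OX8 (Aa31LG1G18360) had 1 count over the dark-kept libraries and was 42.0-fold (95% interval 7.39 to 1675) lower than after 1 d, and CYP714A1 (Aa31LG11G4110, log2 fold change 0.40) did not pass, so 1 of 4 rose and 2 fell (1 at equal depth). Receptors rose: GID1A (Aa31LG5G15490) had 333, 314 and 304 CPM in dark-kept seeds and 106, 97.2 and 102 CPM after 1 d (log2FC 1.64 ± 0.12, adjusted p = 1.1e-07). GID1B (Aa31LG10G16830) had 12.2, 6.52 and 13.3 CPM in dark-kept seeds and 1.76, 1.64 and 2.98 CPM after 1 d (log2FC 2.32 ± 0.36, adjusted p = 8.7e-05). SLY1 (Aa31LG7G10250), the F-box protein that removes DELLA repressors, rose to 215, 255 and 183 CPM in dark-kept seeds against 42.5, 51.9 and 46.2 CPM after 1 d (log2FC 2.21 ± 0.27, adjusted p = 1.1e-05). Of the DELLA genes, GAI (Aa31LG1G140) fell to 4.73, 6.52 and 6.66 CPM in dark-kept seeds, against 48.8, 50.2 and 60.0 CPM after 1 d (log2FC -3.14 ± 0.32, adjusted p = 2.2e-06). RGL1 (Aa31LG2G3030), with 2 counts over the dark-kept libraries, was 63.3-fold (95% interval 17.38 to 524) lower. RGL2 (Aa31LG5G13950), the main DELLA of Arabidopsis seeds, had 260.4, 288 and 259 CPM in dark-kept seeds and 218, 232 and 219.9 CPM after 1 d (adjusted p = 0.064), and RGA (Aa31LG2G8340) had a log2 fold change of -0.03. Of the 7 perception genes 3 rose, 2 fell and 2 did not pass.

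**Figure D5:**
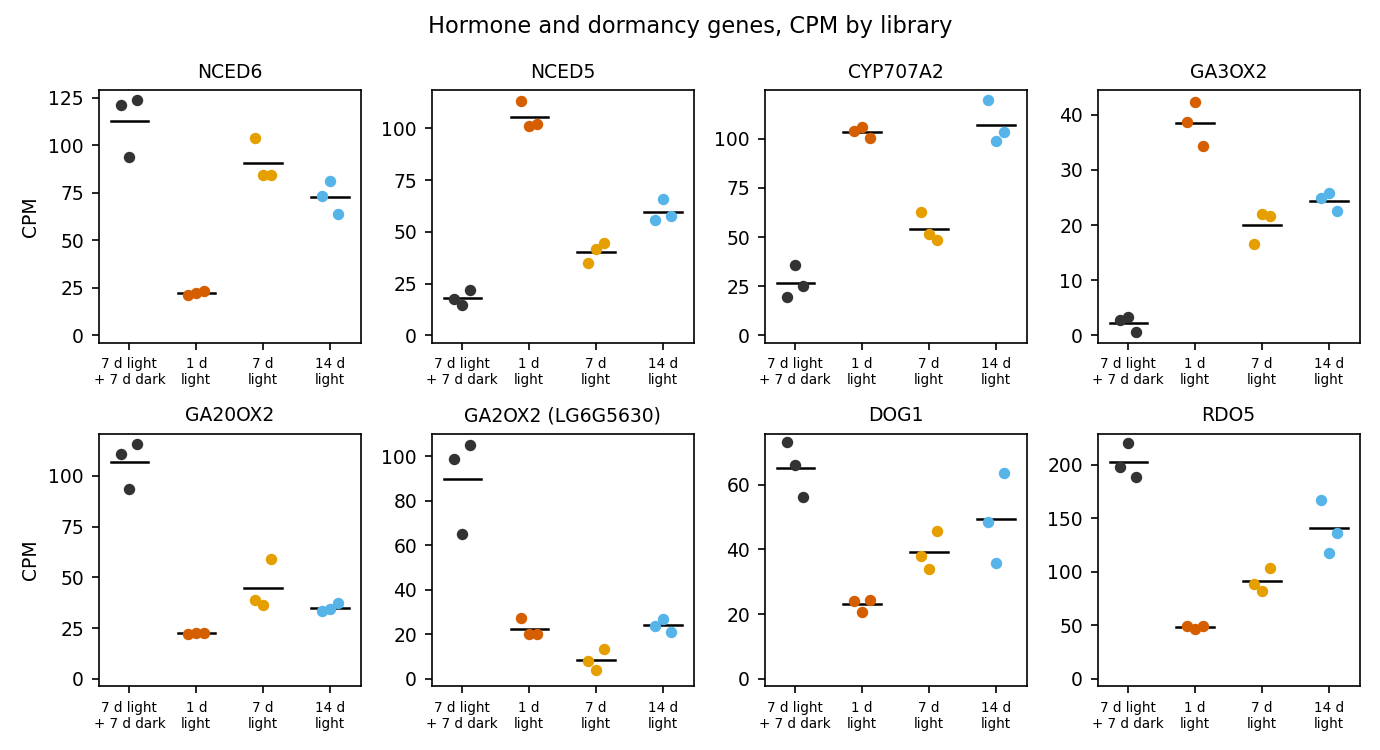
CPM of 8 hormone and dormancy genes in each library, with dark-kept seeds at the left and 1 d, 7 d and 14 d of light to the right; points are libraries and bars are means of 3. GA3OX2 and CYP707A2 are lowest in dark-kept seeds, GA20OX2, DOG1 and RDO5 are highest there, NCED6 and NCED5 are on opposite sides of 1 d of light, and the GA2OX2 copy Aa31LG6G5630 is high in the dark and low after 7 d of light.

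Genes that regulate dormancy mostly rose, 6 of 11, with 2 lower and 3 not called (median 0.69). Light-kept seeds had medians of 0.46 after 7 d and 0.86 after 14 d for the same members against the same 1 d libraries. With 1 d light replicate 1 or 3 left out 1 was lower, and none without 1 d light replicate 2. DOG1 (Aa31LG9G7230), the main dormancy gene of Arabidopsis, whose product inhibits AHG1 and AHG3 phosphatases, had 73.0, 66.0 and 56.05 CPM in dark-kept seeds and 24.1, 20.8 and 24.5 CPM after 1 d (log2FC 1.48 ± 0.19, adjusted p = 1.6e-05). RDO5 (Aa31LG9G11130), a pseudophosphatase that holds dormancy, had 198, 220.0 and 188 CPM in dark-kept seeds and 49.0, 46.4 and 49.7 CPM after 1 d (log2FC 2.06 ± 0.14, adjusted p = 6.2e-08), above 7 d of light as well (log2FC 1.15 ± 0.13, adjusted p = 1.3e-04). DAG2 (Aa31LG1G27990), a DOF transcription factor known in Arabidopsis for favouring germination, rose too, to 85.9, 64.4 and 64.4 CPM in dark-kept seeds against 17.35, 15.8 and 16.7 CPM after 1 d (log2FC 2.1 ± 0.16, adjusted p = 2.2e-07). MFT (Aa31LG7G2970), a phosphatidylethanolamine-binding protein of seeds, was at 314, 354 and 271 CPM in dark-kept seeds and 129, 127 and 117 CPM after 1 d (log2FC 1.33 ± 0.21, adjusted p = 8.6e-05). The DOG1-related DOGL3 (Aa31LG6G1420) was at 70.3, 95.3 and 69.9 CPM in dark-kept seeds and 34.7, 34.4 and 31.8 CPM after 1 d (log2FC 1.21 ± 0.21, adjusted p = 2.1e-04). SOM (Aa31LG1G9000), a zinc finger repressor of germination, rose by a log2 fold change of 0.69, a call lost without 1 d light replicate 3 (adjusted p = 0.055) and with counts expanded for a limit of 1 read per base (adjusted p = 0.079). SPT (Aa31LG6G14050), a bHLH factor of germination responses to light and cold, had 0 counts in dark-kept seeds and 5.78, 5.73 and 4.81 CPM after 1 d (at least 8.13-fold lower). RDO2 (Aa31LG5G23370) fell by 0.39 on the log2 scale, a call lost without 1 d light replicate 2 or 3 (adjusted p = 0.058 for each) and without dark-kept replicate 3 (adjusted p = 0.13). It was also lost at equal depth (adjusted p = 0.23) and with the length trend removed (adjusted p = 0.17). HUB1 (Aa31LG1G26550, log2 fold change -0.33), DOGL4 (Aa31LG6G1400, -0.10) and MYB96 (Aa31LG11G1170, 0.40) did not pass the test. In embryo maturation 3 of 6 rose (1 with total counts) and 3 did not pass. FUS3 (Aa31LG2G5750), a B3 factor of the maturation programme, was at 27.1, 27.7 and 22.8 CPM in dark-kept seeds and 1.01, 2.46 and 1.37 CPM after 1 d (log2FC 3.97 ± 0.25, adjusted p = 4.9e-08).

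Transcripts of the dry seed's reserves were higher in dark-kept seeds than after 1 d of light. All 8 storage protein genes rose (median 1.75), as did all 6 oil body genes (median 1.55), and 8 of 11 LEA and desiccation genes rose and 1 fell (median 1.24). The same members had medians of 1.22, 1.12 and 0.88 after 7 d of light against the same 1 d libraries. After 14 d of light, at equal age, these medians were 1.86, 1.69 and 1.25, so the rise was also present in light-kept seeds. CRD (Aa31LG1G9070), a cupin storage protein, had 126, 114 and 96.6 CPM in dark-kept seeds and 5.03, 6.28 and 5.26 CPM after 1 d (log2FC 4.33 ± 0.26, adjusted p = 3.4e-08). SESA4 (Aa31LG5G10280), a 2S albumin, had 211, 213 and 149 CPM in dark-kept seeds and 12.8, 22.1 and 13.0 CPM after 1 d (log2FC 3.58 ± 0.27, adjusted p = 1.8e-07). OLEO3 (Aa31LG3G7740), an oleosin that coats oil bodies, had 332, 389 and 275 CPM in dark-kept seeds and 98.6, 104 and 90.6 CPM after 1 d (log2FC 1.76 ± 0.26, adjusted p = 5.5e-05). LEA14 (Aa31LG1G10800) had 266, 309.6 and 219 CPM in dark-kept seeds and 80.2, 83.3 and 70.5 CPM after 1 d (log2FC 1.76 ± 0.25, adjusted p = 3.5e-05). The dehydrin gene ERD10 (Aa31LG7G4750) was the exception, with 0 counts in dark-kept seeds and 9.3, 8.74 and 8.93 CPM after 1 d (at least 13.5-fold lower). These groups hold short, densely read genes, and read density moved with the comparison. No model of 300 bp or longer exceeded 0.996 reads per base in any library. The sources used here do not say whether reads at the same position were collapsed before counting, and values of densely read genes may be compressed. The median log2 fold change was -0.37 for 1551 genes under 0.01 reads per base, -0.14 for the next 10567, 0.30 for 2861 genes at 0.1 to 0.3 and 0.70 for 322 genes above that. With counts expanded for a limit of 1 read per base the medians of the 3 groups were 1.84, 1.62 and 1.16, and with the length trend removed 1.88, 1.67 and 1.3.

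Oil breakdown did not move as a whole, with 7 of 20 higher and 7 lower (median -0.05), near the 33.2% higher and 35.5% lower of all tested genes. The glyoxylate cycle enzymes ICL (Aa31LG8G8350) and MLS (Aa31LG1G21410) rose: isocitrate lyase had 904, 1005 and 803 CPM in dark-kept seeds and 416, 439 and 380.1 CPM after 1 d (log2FC 1.13 ± 0.20, adjusted p = 2.2e-04). Malate synthase had 862, 1001 and 781 CPM in dark-kept seeds and 510.0, 522 and 468 CPM after 1 d (log2FC 0.82 ± 0.21, adjusted p = 0.0033). Peroxisomal malate dehydrogenase PMDH1 (Aa31LG3G17410) had the largest increase in the group, with 191, 245 and 181 CPM in dark-kept seeds against 48.5, 49.7 and 52.2 CPM after 1 d (log2FC 2.03 ± 0.22, adjusted p = 3.3e-06). Peroxisomal citrate synthase CSY3 (Aa31LG1G24550) fell to 71.7, 77.4 and 74.4 CPM in dark-kept seeds, against 246, 263 and 239 CPM after 1 d (log2FC -1.74 ± 0.11, adjusted p = 3.8e-08). The acyl-CoA oxidase ACX2 (Aa31LG1G16860) fell to 46.0, 49.7 and 68.3 CPM in dark-kept seeds against 217, 212 and 209 CPM after 1 d (log2FC -1.95 ± 0.20, adjusted p = 1.9e-06). The lipase SDP1 (Aa31LG1G21300), which starts the breakdown of stored oil, fell to 83.2, 69.3 and 83.2 CPM in dark-kept seeds against 163, 156 and 162 CPM after 1 d (log2FC -1.03 ± 0.12, adjusted p = 6.8e-06).

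Genes of cell growth stood far lower than on the first day. Expansins, which loosen walls so that cells can elongate, fell in 7 of 9 cases, all 7 past 2-fold, and 1 rose (median -4.17, or -3.87 with genes read at most 3 times in a group taken at their bound or ratio). EXPA15 (Aa31LG2G7320) had 4.73, 6.52 and 4.44 CPM in dark-kept seeds and 121, 126 and 126 CPM after 1 d (log2FC -4.59 ± 0.15, adjusted p = 1.6e-09). EXPA9 (Aa31LG1G22490) had 1.35, 2.44 and 3.33 CPM in dark-kept seeds and 65.9, 68.5 and 67.3 CPM after 1 d (log2FC -4.76 ± 0.26, adjusted p = 2.1e-08). EXPA2 (Aa31LG11G6160), an expansin of germinating seeds, had 0 counts in dark-kept seeds and 16.6, 19.7 and 19.7 CPM after 1 d (at least 28.03-fold lower). This state was already there in the light: the medians after 7 d and 14 d of light against the same 1 d libraries were -3.86 and -3.68. EXPA20 (Aa31LG6G16900), the exception, was at 48.7, 55.4 and 46.6 CPM in dark-kept seeds and 32.4, 36.3 and 32.3 CPM after 1 d (log2FC 0.57 ± 0.17, adjusted p = 0.0084, lost with total counts and at equal depth). Xyloglucan and mannan enzymes were mixed, 3 of 10 higher and 5 lower. XTH16 copies went apart: Aa31LG8G10270 was at 31.1, 34.2 and 39.4 CPM in dark-kept seeds and 118, 128 and 114 CPM after 1 d (log2FC -1.77 ± 0.14, adjusted p = 3.2e-07). The copy Aa31LG9G3250 was at 369.9, 352 and 282 CPM in dark-kept seeds and 148, 161 and 139.6 CPM after 1 d (log2FC 1.16 ± 0.19, adjusted p = 1.2e-04). Of the 4 tested root and radicle markers 2 fell, as given above, and the part of these markers in the changes was not tested.

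In the cell cycle list 13 of 19 fell and 4 rose (median -2.1, beside -1.53 after 7 d and -1.52 after 14 d of light). All 6 MCM genes, whose products form the replicative helicase, fell: MCM6 (Aa31LG9G8530) had 2.71, 0 and 1.11 CPM in dark-kept seeds and 37.5, 32.5 and 39.4 CPM after 1 d (log2FC -4.72 ± 0.36, adjusted p = 2.0e-07). MCM2 (Aa31LG3G14210) had 8.12, 10.6 and 16.1 CPM in dark-kept seeds and 90.5, 86.6 and 88.6 CPM after 1 d (log2FC -2.89 ± 0.30, adjusted p = 2.2e-06). Ribonucleotide reductase, which supplies DNA precursors, fell with them. RNR1 (Aa31LG7G14770) stood at 16.2, 9.78 and 11.7 CPM in dark-kept seeds and 119, 107 and 121 CPM after 1 d (log2FC -3.19 ± 0.23, adjusted p = 1.0e-07), below 7 d of light as well (log2FC -1.31 ± 0.26, adjusted p = 0.0042). Among those that rose, CYCD2;1 (Aa31LG7G14330), a D-type cyclin, had 68.98, 55.4 and 55.5 CPM in dark-kept seeds and 15.8, 14.7 and 14.6 CPM after 1 d (log2FC 1.99 ± 0.14, adjusted p = 1.2e-07). The mitotic kinase gene CDKB2;1 (Aa31LG4G6650) had 156, 162 and 155 CPM in dark-kept seeds and 39.0, 47.2 and 46.9 CPM after 1 d (log2FC 1.83 ± 0.13, adjusted p = 1.4e-07). Auxin transport and response fell in 10 of 13 cases and rose in 2 (median -1.49, beside -1.28 after 7 d and -0.94 after 14 d of light). The influx carrier gene AUX1 (Aa31sc236G10) was at 12.8, 15.5 and 13.9 CPM in dark-kept seeds and 89.0, 93.1 and 92.0 CPM after 1 d (log2FC -2.70 ± 0.20, adjusted p = 1.5e-07). IAA3 (Aa31LG1G20590), a repressor of auxin responses, rose to 116, 145 and 114 CPM in dark-kept seeds, against 24.4, 24.3 and 24.5 CPM after 1 d (log2FC 2.35 ± 0.13, adjusted p = 1.8e-08).

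Genes known to respond to darkness and sugar shortage rose in 9 of 18 cases and fell in 3 (median 0.50; 1 fell without dark-kept replicate 2), and 9 were higher than after 7 d of light. DIN9 (Aa31LG2G3470), a dark-inducible phosphomannose isomerase, was at 21.0, 15.5 and 14.4 CPM in dark-kept seeds, against 2.26, 1.37 and 2.52 CPM after 1 d (log2FC 2.99 ± 0.30, adjusted p = 1.8e-06). After 7 d of light it had 4.06, 1.32 and 3.18 CPM (log2FC 2.52 ± 0.32, adjusted p = 2.5e-04, dark-kept against 7 d). It was high in the dark-kept libraries alone. BCAT2 (Aa31LG1G4810), a branched-chain aminotransferase, was at 39.9, 51.3 and 43.8 CPM in dark-kept seeds and 2.26, 3.55 and 2.29 CPM after 1 d (log2FC 4.04 ± 0.19, adjusted p = 9.1e-09). Most of that rise was present after 7 d of light (25.1, 30.4 and 29.3 CPM). GDH1 (Aa31LG11G11440), glutamate dehydrogenase, had 120.4, 129.5 and 109 CPM in dark-kept seeds and 23.64, 18.3 and 26.3 CPM after 1 d (log2FC 2.38 ± 0.19, adjusted p = 3.0e-07). ASN1 (Aa31LG4G16120), the dark-induced asparagine synthetase, had 169.7, 177 and 146 CPM in dark-kept seeds and 57.6, 55.7 and 55.6 CPM after 1 d (log2FC 1.54 ± 0.13, adjusted p = 3.6e-07). TPS9 (Aa31LG7G7730), a trehalose-phosphate synthase family gene, fell to 44.6, 31.0 and 44.4 CPM in dark-kept seeds, against 96.3, 79.7 and 83.1 CPM after 1 d (log2FC -1.09 ± 0.15, adjusted p = 2.2e-05), though it lay above 7 d of light (21.4, 23.8 and 21.0 CPM). The kinase subunit gene KIN10 (Aa31LG5G12530), a sensor of low energy, rose (log2FC 0.81 ± 0.10, adjusted p = 7.8e-06).

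Autophagy genes rose in 14 of 19 cases and fell in 3 (median 0.90). The same members had medians of 0.50 after 7 d and 0.50 after 14 d of light against the same 1 d libraries. Against 7 d of light, 2 were higher and 1 lower (6 and 1 without 7 d light replicate 3). With total counts, at equal depth, or without 1 d light replicate 1 or 3 or dark-kept replicate 2, 11 rose. All 9 copies of ATG8 genes, whose products coat the autophagosome, rose, 7 of them by a log2 fold change above 1. ATG8G (Aa31LG10G14930) had 96.7, 112 and 77.7 CPM in dark-kept seeds and 21.9, 22.1 and 17.62 CPM after 1 d (log2FC 2.21 ± 0.21, adjusted p = 1.1e-06). ATG8H (Aa31LG5G16940) had 16.9, 20.4 and 15.0 CPM in dark-kept seeds and 2.26, 2.18 and 2.29 CPM after 1 d (log2FC 2.90 ± 0.32, adjusted p = 4.2e-06). Against them, ATG9 (Aa31LG5G5690), a membrane protein of early autophagosomes, fell to 50.7, 43.2 and 63.3 CPM in dark-kept seeds, against 86.8, 90.7 and 101 CPM after 1 d (log2FC -0.81 ± 0.15, adjusted p = 3.9e-04). Genes of leaf senescence and chlorophyll breakdown rose in 5 of 6 cases and fell in 1 (median 0.77). Their medians were 0.75 after 7 d and 0.95 after 14 d of light against the same 1 d libraries. One copy of pheophorbide a oxygenase, PAO (Aa31LG4G14210), had 241, 197 and 192 CPM in dark-kept seeds and 24.1, 20.8 and 27.9 CPM after 1 d (log2FC 3.11 ± 0.13, adjusted p = 4.6e-09), with 167, 172 and 172 CPM after 7 d of light. The other (Aa31LG6G8060) had 14.2, 11.4 and 9.43 CPM in dark-kept seeds and 23.4, 21.6 and 25.2 CPM after 1 d (log2FC -1.02 ± 0.26, adjusted p = 0.0035, lost at equal depth). The Mg-dechelatase gene NYE2 (Aa31LG9G10550) rose to 469, 514 and 390.1 CPM in dark-kept seeds, against 127, 128 and 117 CPM after 1 d (log2FC 1.88 ± 0.24, adjusted p = 1.3e-05).

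Other groups were divided, as were all tested genes (33.2% higher and 35.5% lower). Of 32 genes for cytosolic ribosomal proteins 11 rose and 8 fell (median 0.25). That count depends on the scaling (5 higher and 12 lower with total counts) and on single libraries, with 7 higher without 1 d light replicate 1, 5 without 1 d light replicate 3 and 5 without dark-kept replicate 2. Antioxidant genes gave 8 higher and 6 lower of 17. CAT1 (Aa31LG7G4850), a catalase, rose to 1062, 1062 and 960.1 CPM in dark-kept seeds, against 377, 409 and 367 CPM after 1 d (log2FC 1.42 ± 0.13, adjusted p = 7.7e-07). The ascorbate peroxidase gene APX1 (Aa31sc175G10) fell to 12.2, 11.4 and 9.43 CPM in dark-kept seeds against 139, 149 and 135 CPM after 1 d (log2FC -3.69 ± 0.25, adjusted p = 6.6e-08). In the heat shock group 3 of 13 rose (1 at equal depth) and 2 fell (1 without dark-kept replicate 3): HSP90.1 (Aa31LG3G8960), a chaperone, had 94.0, 82.3 and 99.9 CPM in dark-kept seeds and 30.9, 30.3 and 27.0 CPM after 1 d (log2FC 1.65 ± 0.13, adjusted p = 2.0e-07). BIP2 (Aa31LG2G1540), a chaperone of the endoplasmic reticulum, had 66.3, 57.0 and 69.9 CPM in dark-kept seeds and 296, 329 and 301 CPM after 1 d (log2FC -2.25 ± 0.12, adjusted p = 2.1e-08). Of the nitrate, ethylene and karrikin genes 4 of 13 rose and 4 fell. KAI2 (Aa31LG6G14340), the karrikin receptor, which promotes germination in Arabidopsis, had 227, 257 and 201 CPM in dark-kept seeds and 47.0, 55.7 and 47.1 CPM after 1 d (log2FC 2.19 ± 0.19, adjusted p = 4.6e-07), above 7 d of light too (log2FC 1.23 ± 0.18, adjusted p = 7.5e-04). Both nitrate reductase genes fell. NIA2 (Aa31LG6G9110) was at 41.3, 34.2 and 45.5 CPM in dark-kept seeds and 104, 105 and 109.6 CPM after 1 d (log2FC -1.38 ± 0.21, adjusted p = 6.1e-05). Over all 35 lists 329 of 431 tested models passed the test, 76.3%, beside 68.7% of all tested genes.

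Some genes changed one way from 1 d to 7 d of light and the other way from 7 d of light to dark-kept seeds. Others changed the same way in both steps. The second step adds 7 d of age as well as darkness, and the part of each was not tested. The 6 named of each kind were chosen from both changes, so their values are a description. ATS3 (Aa31LG11G1390), an embryo-specific protein, was at 10.1, 10.6 and 6.1 CPM in dark-kept seeds and 9.81, 8.47 and 11.9 CPM after 1 d of light, against 66.7, 67.9 and 101 CPM after 7 d and 124, 92.6 and 129 CPM after 14 d. The transporter gene PDR1 (Aa31LG8G3480) had 5.41, 2.44 and 7.77 CPM in dark-kept seeds, 4.28, 4.92 and 5.49 CPM after 1 d and 44.6, 49.4 and 32.4 CPM after 7 d. The glutathione transferase gene GSTU2 (Aa31LG5G6990) had 4.06, 5.7 and 1.11 CPM in dark-kept seeds, 2.01, 3.82 and 2.98 CPM after 1 d and 11.8, 12.3 and 16.5 CPM after 7 d. In all of these the dark-kept and 1 d values overlapped. A pectin methylesterase inhibitor (Aa31LG2G310) was the reverse, with 33.8, 31.8 and 36.6 CPM in dark-kept seeds, 35.5, 41.0 and 38.0 CPM after 1 d and 5.9, 9.7 and 12.1 CPM after 7 d of light. An extensin-like protein, ELP (Aa31LG1G2640), lay between in darkness, with 5.41, 5.7 and 7.77 CPM in dark-kept seeds, 39.2, 44.0 and 36.6 CPM after 1 d and 0, 0 and 0.636 CPM after 7 d. The second anthocyanidin synthase copy described above was the last of these 6. Genes that fell in both steps include the seed coat pigment regulator TT8 (Aa31LG1G29520), with 1.35, 1.63 and 0 CPM in dark-kept seeds, 60.9, 56.5 and 58.6 CPM after 1 d and 8.48, 9.7 and 7.63 CPM after 7 d. The others are the senescence-related gene SRG3 (Aa31LG5G11180), a sugar transporter-like protein (Aa31LG11G10860), a lipid-transfer protein (Aa31LG4G13430), a cation efflux protein (Aa31LG5G20150) and a Sec14-like protein (Aa31LG7G10020). All 6 were near 0 in dark-kept seeds.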

How the data were processed

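Polyadenylated RNA of imbibed seeds was sequenced in 12 libraries, 3 per condition. Per the labels' protocols the libraries were made with a Lexogen SENSE kit. The submitters' processing notes name bcl2fastq 2.17.1, Trimmomatic, Bowtie2 2.3.5.1, HTSeq 0.11.2 and the Arabidopsis build TAIR10, with no role or order. The gene models are of *Aethionema arabicum*, and the sources used here do not give the strand setting of the counting. The deposited table holds raw read counts per gene model and RPKM values, which the deposited counts give when divided by model length and by the sum of the library (relative differences of at most 3.45e-08) and which entered no test. It pairs most models with an Arabidopsis gene, and 3271 of 24932 have none.

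The counts were tested with edgeR 4.0.16 (R 4.3.3, limma 3.58.1): TMM scaling, the filterByExpr filter, a quasi-likelihood fit of 4 condition means over the 12 libraries, p-values adjusted by Benjamini and Hochberg over the 15301 tested genes, and a threshold of 0.05. Genes that passed it are said to rise, fall or be called. Changes past 2-fold were tested with edgeR's glmTreat. The genes left untested held 0.379% of the counts. Counts were also simulated with the real library sizes, gene means pooled over the 12 libraries and the trended dispersion. At each of 4 folds 50 genes were changed, up and down equally. There the comparison with 1 d of light over 15301 genes recovered 24% of 1.5-fold, 82% of 2-fold, 94% of 4-fold and 98% of 8-fold changes. It called 3 of 15101 unchanged genes. In the real data 68.7% of the tested genes were called, so these rates do not measure recovery or false calls there. CPM uses TMM-scaled library sizes, standard errors were derived from the log2 fold change and its F statistic, and folds against 0 counts take 3 counts over the group as the limit. Intervals are exact at 95% and cover counting error only.

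Members and gene lists were chosen with earlier results of these data known. The genes named are the 10 highest and 10 lowest ratios with a mean of at least 8 CPM, up to 4 called members per list with the smallest adjusted p and up to 2 that went against its majority, tested members of the ABA synthesis and catabolism, GA and dormancy lists and, of the marker lists, ICE1, and 6 genes of each of the patterns over light and darkness. Of the 163 genes with a printed identifier, 136 come from this rule and 27 (among them CHS, PAP1, the ELIP, SPA, COP1, PIF3, PIF1 and PHYA genes, HY5, LHY, TOC1, MCM2 and MCM6) were chosen after their values were seen. Genes that the rule gives and that have no printed identifier are not reported here. Alternatives were total-count and DESeq2 scaling, no filter, fewer libraries, a replicate block, leaving out libraries, thinning, expansion of counts for a limit of 1 read per base, removal of a length trend (loess span 0.5), DESeq2 1.42.0 and, chosen after seeing the data, leaving out models paired with organelle genes. Figures were drawn with matplotlib 3.10.9.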

Additional observations from a re-analysis of the deposited data

How the results depend on the processing

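The numbers of genes called against 1 d of light and past 2-fold stayed within 1.5 times under each alternative, at 8236 to 11681 and 2490 to 4068. Leaving out single libraries gave 9652 to 10061 and 3210 to 3520, 1609 to 3684 for the calls against 7 d of light, a median distance of 1.26 to 1.3, and 301 to 324 called list members. DESeq2 called 4858 higher and 5549 lower, and without models paired with organelle genes 4924 were higher and 5546 lower. At equal depth 1336 genes were called against 7 d of light, and the counts fell to 2 higher in ABA synthesis, 3 lower among ABA receptors and kinases, 1 lower in GA inactivation and 1 higher in heat shock. The median distance of 1.27 was 1.19 with no filter, 0.95 over the 500 genes of highest mean and 1.88 with genes scaled to unit variance, as their construction implies. With total counts 1 embryo maturation gene and 5 ribosomal protein genes were higher; with only the 6 libraries 17 ribosomal protein genes were, and leaving out libraries gave 5 to 11. The causes of these shifts were not tested.

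With the replicate number as a block, 4882 genes were higher and 5230 lower than after 1 d of light (10112 in all), 1331 and 2099 past 2-fold, and 922 and 1193 against 7 d of light. Libraries of the same number correlated in their deviations at 0.01, 0.20 and 0.18, beside -0.21 to 0.05 for libraries of different number. The main fit does not take the numbers as pairs, and whether they mark pairs was not tested.

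Of the 163 genes with a printed identifier 135 had the same direction and side of the threshold under all 16 alternatives. Some genes that did not pass as reported passed under an alternative. They were HY5, RGL2, HUB1, ICE1 and CYP714A1 with only the 6 libraries, PHR1, HUB1 and ICE1 with total counts, and HY5 at equal depth. CYP714A1, UGT71C5, ABA4, HY5, RGL2 and COP1 passed with the length trend removed, HUB1 without dark-kept replicate 3 and ICE1 without dark-kept replicate 1. Reversals were seen in genes that did not pass the test. With the length trend removed the log2 fold changes were 0.16 for ABA1, 0.097 for RGA, 0.017 for DOGL4 and 0.13 for ABI3. With total counts they were -0.16 for UGT71C5, -0.0065 for COP1, -0.0055 for GSTU2 and -0.034 for PDR1. At equal depth they were -0.027 for UGT71C5, -0.052 for GA20OX3 and -0.50 for PDR1, and -0.014 for RGL2 with expanded counts. Leaving out libraries gave -0.15 to 0.80 for MYB96, -0.37 to 0.022 for ATS3, -0.096 to 0.012 for ABA1, -0.0053 to 0.080 for UGT71C5, -0.13 to 0.063 for RGA, -0.27 to 0.70 for GSTU2, -0.36 to 0.077 for DOGL4 and -0.28 to 0.42 for PDR1. The cause of each reversal was not tested. The dark-kept libraries hold fewer counts than those of 1 d of light.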
